A study of Mus musculus with 15 samples.

Results

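Toll-like receptors bind molecules of microbes and of damaged cells, and Myd88 is the adaptor protein that carries the signal of nearly all of them. The 10 genes described here are Tlr1, Tlr2, Tlr3, Tlr4, Tlr6, Tlr7, Tlr8, Tlr9 and Tlr13, which encode 9 receptors, and Myd88. They were chosen by name and matched to the Ensembl gene identifiers of the files through the GENCODE mouse annotation, and they are 10 of the 46679 genes in the count table.

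RNA-seq was carried out on whole tissue of end-stage brain tumors grown in immune competent C57BL/6 mice and on naïve brain of the same strain, to compare the immune profile of 4 glioblastoma models. There were 5 groups of 3 mice, which gave 15 libraries. CT2A (p53 wild type) and GL261 (K-ras and p53 mutant) are lines that were induced with methylcholanthrene. The 005 line carries activated H-ras and AKT on a p53+/- background, and Mut3 has inactivated NF1 and p53. Each tumor group is 1 cell line that expresses GFP and firefly luciferase, implanted into mice aged 6 to 8 weeks, so a difference between groups is a difference between lines. Mut3 was implanted as 500000 cells and the other lines as 100000, so line and number of cells cannot be told apart in comparisons with Mut3. The tumor-bearing mice were perfused before tissue was taken, and the age of the naïve mice was not given in the sources used here.

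As background, Tlr1, Tlr2, Tlr4 and Tlr6 sit at the cell surface, whereas Tlr3, Tlr7, Tlr8, Tlr9 and Tlr13 sense nucleic acids in endosomes. Binding recruits Myd88 through TIR domains, which activates the IRAK kinases and TRAF6 and, through them, NF-κB and interferon regulatory factors, while Tlr3 signals through another adaptor, Ticam1 (TRIF), and Tlr4 uses both. In the brain these receptors are best known from microglia and from macrophages that enter from the blood.

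The files held 3105119 to 5161132 counts per naïve library, 7246421 to 8825088 in CT2A, 5380395 to 7244155 in GL261, 8523676 to 13130158 in 005 and 7525006 to 11308105 in Mut3. Levels are given as normalised CPM, which are counts divided by the library total after TMM scaling, and a count of 3 equalled 0.214 to 0.811 normalised CPM in a single library. Mitochondrial transcripts took 14.97% to 24.0% of the naïve counts, 17.8% of those of 005 replicate 3 and 11.3% of those of GL261 replicate 2, and no other tumor exceeded 7.59%. 005 replicate 3 also held brain transcripts, with a summed neuronal marker level of 357 TPM against 521 to 599 TPM in naïve brain. Of the 10 genes, 9 passed the filter on low counts, and Tlr9 did not.

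Promoter sequence was available for 8 of the 10 genes, in 10 windows that run from 250 bases before to 50 bases after a RefSeq start site (GRCm38.p6), and not for Tlr4 and Tlr7. The windows of Tlr2, Tlr3 and Myd88, whose levels moved together across the tumors, are shown with the first window of Tlr6, whose level did not, each 5′ to 3′ on the gene's own strand with motif matches in capitals. All 4 genes lie on the minus strand, at chr3:83841559-83841858 for Tlr2, chr8:45410331-45410630 for Tlr3, chr9:119339969-119340268 for Myd88 and chr5:64959117-64959416 for Tlr6.
Tlr2: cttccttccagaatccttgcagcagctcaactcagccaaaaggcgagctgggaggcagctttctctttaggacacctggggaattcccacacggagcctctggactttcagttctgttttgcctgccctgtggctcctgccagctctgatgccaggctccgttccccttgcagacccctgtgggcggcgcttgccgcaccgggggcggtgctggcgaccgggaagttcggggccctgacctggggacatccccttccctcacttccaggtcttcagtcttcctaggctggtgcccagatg
Tlr3: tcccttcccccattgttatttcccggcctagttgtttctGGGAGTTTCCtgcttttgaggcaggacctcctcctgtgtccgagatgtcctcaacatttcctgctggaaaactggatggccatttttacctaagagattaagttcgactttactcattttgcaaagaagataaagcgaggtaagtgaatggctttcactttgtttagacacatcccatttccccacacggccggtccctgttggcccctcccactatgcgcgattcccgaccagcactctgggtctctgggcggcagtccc
Myd88: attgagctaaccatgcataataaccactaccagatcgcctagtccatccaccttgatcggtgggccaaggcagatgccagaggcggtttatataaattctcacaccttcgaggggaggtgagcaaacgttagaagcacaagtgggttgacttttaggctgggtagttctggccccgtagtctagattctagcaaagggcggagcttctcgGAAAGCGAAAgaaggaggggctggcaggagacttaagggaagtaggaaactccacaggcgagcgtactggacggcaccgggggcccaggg
Tlr6: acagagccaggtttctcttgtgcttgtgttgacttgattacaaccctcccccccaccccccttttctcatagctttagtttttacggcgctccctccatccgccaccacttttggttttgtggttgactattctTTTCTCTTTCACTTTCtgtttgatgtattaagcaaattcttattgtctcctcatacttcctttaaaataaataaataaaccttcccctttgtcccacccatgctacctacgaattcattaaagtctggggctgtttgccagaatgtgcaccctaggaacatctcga
The letters searched on both strands were GGG and TTTCC with any 2 bases between (NF-κB), GAAA and GAAA with any 2 bases between (the interferon-stimulated response element) and GAGGAA (the core bound by PU.1, a myeloid transcription factor). Tlr3 held 1 NF-κB match that began 211 bases before the start site. Myd88 held 1 interferon response match 40 bases before the start site, and Tlr6 held 2 that overlap each other, 116 and 110 bases before it, on the other strand. Tlr2 held none of the letters searched. Of 32851 windows of this length in the mouse genome, 1.63% held the NF-κB letters, 3.44% the interferon response letters and 28.3% the PU.1 letters. PU.1 letters were also found in the windows of Tlr8, Tlr9, Tlr13 and the first of 2 windows of Tlr1. A match describes the letters in a window and is not a measured binding site.

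Against naïve brain, Toll-like receptor transcripts were higher in CT2A, GL261 and 005, whereas in Mut3 only Tlr6 and Tlr7 passed the test. A gene was called where edgeR's quasi-likelihood test gave an adjusted p under 0.05 over the 17481 genes tested and the fold change was at least 2 (1 on the log2 scale). In CT2A 7 of the 9 tested members were called higher (Tlr2, Tlr4, Tlr6, Tlr3, Tlr7, Tlr13 and Myd88), beside 19.0% of all tested genes. In GL261 6 were called higher (the same without Myd88), beside 14.6%, and in 005 also 6 (the same as in CT2A without Tlr13), beside 11.6%. In Mut3 2 were called higher, beside 17.9%, and in no tumor was a member called lower. Tlr6, Tlr7 and Tlr8 were under the minimum of the low-count filter (1.33 CPM in at least 3 libraries) in all naïve libraries and so were tested through the tumors alone. Without these the numbers called higher were 5, 4, 4 and 0 of 6 in CT2A, GL261, 005 and Mut3. The 9 had median log2 fold changes of 2.52 (CT2A), 2.80 (GL261), 2.83 (005) and 0.47 (Mut3), beside -0.04, -0.08, 0.01 and 0.11 over all tested genes. Tlr6 and Tlr8 had no counts in naïve brain, and with these at their lower bounds, and Tlr8 left out in GL261, the medians were 2.45, 2.54, 2.53 and 0.47. The 4 comparisons share the same 3 naïve libraries, so they are not independent of each other.

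Leaving out naïve replicate 1 reduced these counts to 3 in CT2A, 4 in GL261 and 3 in 005, with backgrounds of 14.9%, 9.24% and 5.96%, and left 2 in Mut3. Leaving out CT2A replicate 3 gave 4 in CT2A, and leaving out 005 replicate 2, which had the highest Tlr2 and Myd88 of all libraries, gave 3 in 005. Leaving out 005 replicate 3 gave 8, 7, 9 and 2 in CT2A, GL261, 005 and Mut3, with backgrounds of 18.8%, 15.3%, 17.6% and 18.6%. The deposited TPM table scales libraries differently, as TPM per CPM was 1.75 in naïve brain and 0.873 to 1.17 in the tumor groups, relative to the median library. With counts scaled as the TPM, which was tried after the data were seen, the median over all genes fell to -1.04, -0.89, -0.56 and -0.72. On that scale 3, 5, 3 and 2 members were called, again with none lower.

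**Figure D1:**
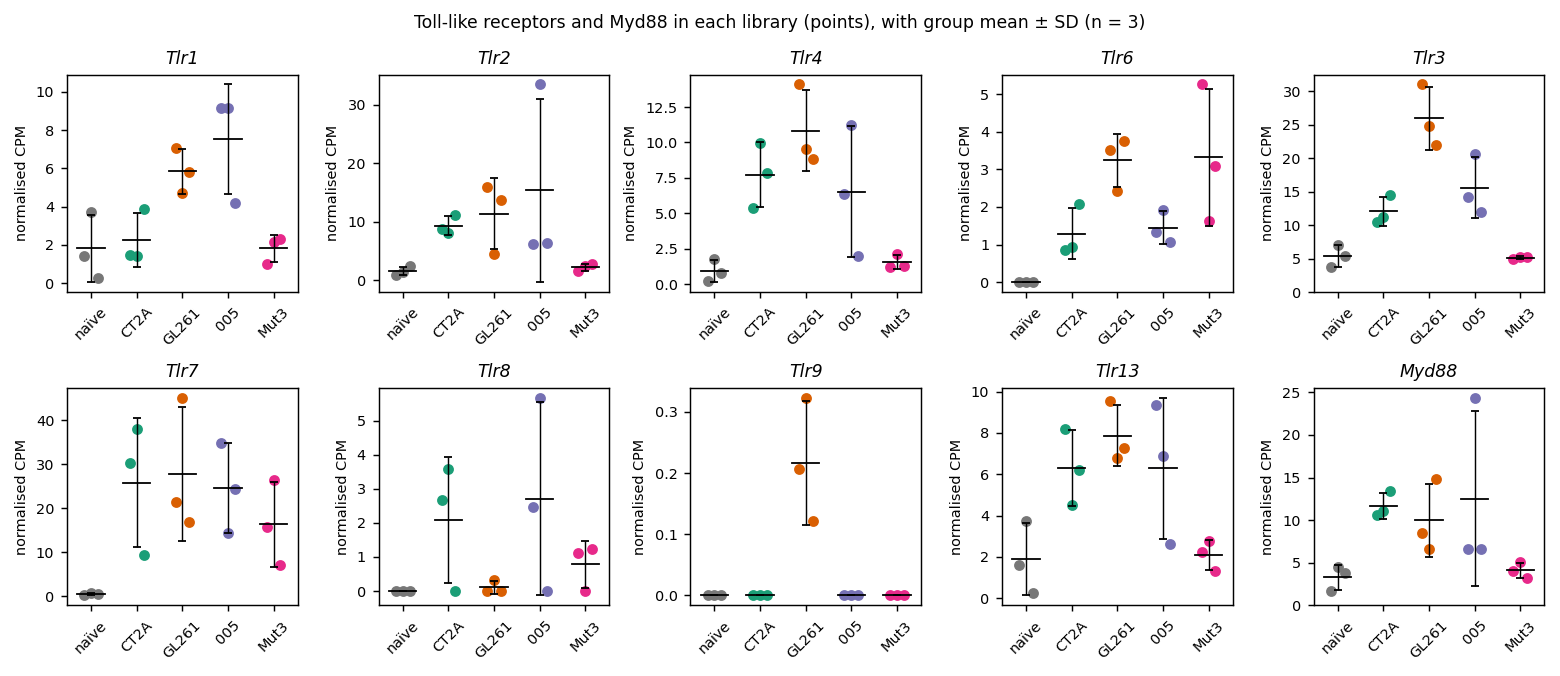
Normalised CPM (y axes, linear, 1 panel per gene) of the 10 genes in each of the 15 libraries (points) by group, with the group mean and SD (bars, n = 3). Mut3 libraries overlap the naïve libraries for Tlr2, Tlr4, Tlr3, Tlr13 and Myd88, and lie far above them for Tlr7, where naïve brain reached at most 0.747 normalised CPM.

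Among the cell surface receptors, Tlr2 and Tlr4 rose in CT2A, GL261 and 005, while Tlr1 was highest in GL261 and 005. Tlr2 recognises bacterial lipoproteins as a partner of Tlr1 or Tlr6. Its level was 1.02, 1.49 and 2.43 normalised CPM in the 3 naïve libraries, 8.79, 8.07 and 11.2 in CT2A, and 16.0, 4.53 and 13.7 in GL261. It was 6.18, 33.4 and 6.48 in 005 and 1.57, 2.39 and 2.81 in Mut3. All libraries of CT2A, GL261 and 005 lay above naïve brain, those of Mut3 overlapped it, and 005 replicate 2 stood far above the other 005 libraries. The log2 fold changes against naïve brain were 2.52 ± 0.71 (SE) in CT2A (adjusted p = 0.0123), 2.80 ± 0.71 in GL261 (adjusted p = 0.0138), 3.22 ± 0.71 in 005 (adjusted p = 0.00912) and 0.47 ± 0.71 in Mut3 (adjusted p = 0.618). Leaving out naïve replicate 1 ended the calls, with log2 fold changes of 2.26, 2.53 and 2.96 and adjusted p of 0.0508, 0.0595 and 0.0527. Leaving out 005 replicate 2 ended the call in 005 (1.96, adjusted p = 0.0550), and scaling as TPM ended that in CT2A (1.56, adjusted p = 0.0680).

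Tlr4 is the receptor for bacterial lipopolysaccharide. Its level was 0.204, 1.74 and 0.811 normalised CPM in naïve brain, 5.37, 9.94 and 7.88 in CT2A, and 14.1, 9.54 and 8.86 in GL261. It was 6.39, 11.2 and 1.99 in 005 and 1.23, 2.14 and 1.32 in Mut3. CT2A, GL261 and 005 lay above all naïve libraries, narrowly so for 005 replicate 3, and Mut3 overlapped naïve brain. The log2 fold changes were 3.08 ± 0.71 in CT2A (adjusted p = 0.00468), 3.57 ± 0.71 in GL261 (adjusted p = 0.00367), 2.83 ± 0.70 in 005 (adjusted p = 0.0168) and 0.78 ± 0.72 in Mut3 (adjusted p = 0.404). The call in 005 ended without naïve replicate 1 (2.33, adjusted p = 0.0750), without naïve replicate 3 (2.78, adjusted p = 0.0614) and without 005 replicate 2 (2.20, adjusted p = 0.0855). It also ended with counts scaled as the TPM.

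Tlr1 and Tlr6, the partners of Tlr2, did not follow the same order. Tlr1 was at 1.43, 3.74 and 0.270 normalised CPM in naïve brain, 1.47, 1.40 and 3.88 in CT2A and 7.05, 4.69 and 5.82 in GL261. It was 9.17, 9.18 and 4.20 in 005 and 1.01, 2.14 and 2.29 in Mut3. GL261 and 005 lay above every naïve library, but naïve brain varied widely, and no tumor passed the test against it. The log2 fold change was 0.31 ± 0.70 in CT2A (adjusted p = 0.745), 1.68 ± 0.69 in GL261 (adjusted p = 0.0878) and, for 005, 2.03 ± 0.69 (adjusted p = 0.0668), and naïve brain and Mut3 both averaged 1.81 normalised CPM. Without naïve replicate 2, GL261 and 005 were called (2.84, adjusted p = 0.0292 and 3.19, adjusted p = 0.0252), as was 005 without its replicate 3 (2.25, adjusted p = 0.0224).

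Tlr6 had no count in any naïve library and was detected in all 12 tumors. It was at 0.855, 0.931 and 2.07 normalised CPM in CT2A, 3.52, 2.42 and 3.76 in GL261, 1.34, 1.93 and 1.07 in 005, and 5.26, 1.64 and 3.08 in Mut3. The Mut3 mean was thus the highest of the 5 groups, unlike that of any other member, although its libraries overlapped those of GL261, 005 and CT2A. Against a floor of 3 counts over the 3 naïve libraries (0.238 normalised CPM), Tlr6 was at least 5.45-fold higher in CT2A, 13.8-fold in GL261, 5.78-fold in 005 and 14.1-fold in Mut3. The fitted differences, which are not these bounds, had adjusted p of 0.00291, 0.00111, 0.00539 and 6.35e-04 in the same order. Tlr6 passed the low-count filter through the tumors alone, so these tests are not given as support. Tlr1 and Tlr6 are neighbours on chromosome 5 (chr5:64924679-64933563 and chr5:64952031-64960097, both minus strand, GRCm38) and share sequence. Of their 31-base words, 607 were shared, which is 18.3% of those of Tlr1 and 16.4% of those of Tlr6, so part of the reads could be split between them, and the values of both are uncertain to that extent.

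**Figure D2:**
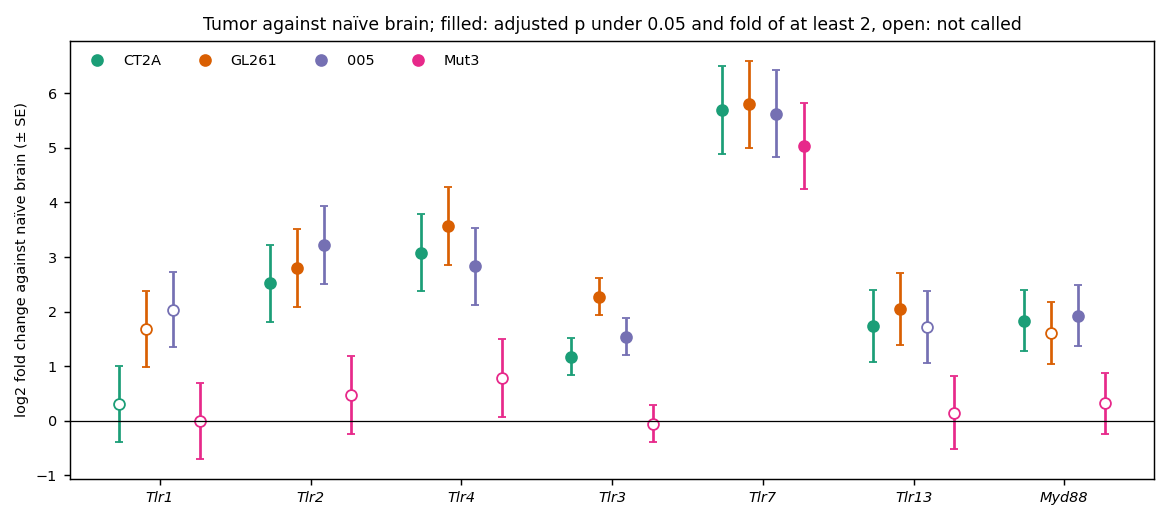
Log2 fold change against naïve brain (y axis) with its SE (bars) for 7 members in CT2A, GL261, 005 and Mut3, with filled points for calls and open points for values that were not called. Tlr6 and Tlr8 are left out because naïve brain had no count of them. Tlr7 lies between 5.04 and 5.80 in all 4 tumors, and the other Mut3 values lie between -0.06 and 0.78.

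Of the endosomal receptors, Tlr7 rose in all 4 tumors and Tlr3 in 3 of them. Tlr3 binds double-stranded RNA. It was at 3.67, 6.97 and 5.41 normalised CPM in naïve brain, 10.5, 11.2 and 14.5 in CT2A and 31.1, 24.7 and 22.0 in GL261. It was 14.2, 20.6 and 11.9 in 005 and 4.92, 5.28 and 5.19 in Mut3. All GL261 libraries lay above all others, those of CT2A and 005 lay between GL261 and naïve brain, and those of Mut3 fell within the naïve range. The log2 fold changes were 1.17 ± 0.33 in CT2A (adjusted p = 0.0133), 2.28 ± 0.34 in GL261 (adjusted p = 6.37e-04), 1.54 ± 0.34 in 005 (adjusted p = 0.00823) and -0.06 ± 0.34 in Mut3 (adjusted p = 0.911). The CT2A call ended without naïve replicate 1 (0.97, adjusted p = 0.0593) and without CT2A replicate 3 (1.03, adjusted p = 0.0559). Scaled as TPM, Tlr3 was called in GL261 and not in CT2A (0.12) or 005 (0.87). An antisense gene, Gm45542, shares 6.10% of the 31-base words of Tlr3, and whether counting used the strand was not given in the sources used here.

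Tlr7 binds single-stranded RNA. Its level was 0.204, 0.747 and 0.541 normalised CPM in naïve brain, which is 6 counts in all, and 30.2, 37.9 and 9.43 in CT2A. It was 21.3, 45.1 and 16.9 in GL261, 34.9, 14.4 and 24.4 in 005, and 15.7, 26.4 and 7.12 in Mut3. The lowest tumor library was thus far above the highest naïve one, and the 4 tumors overlapped each other. The log2 fold changes were 5.69 ± 0.80 in CT2A (adjusted p = 3.55e-04), 5.80 ± 0.80 in GL261 (adjusted p = 4.21e-04), 5.62 ± 0.80 in 005 (adjusted p = 0.00177) and 5.04 ± 0.79 in Mut3 (adjusted p = 5.42e-04). As ratios of summed counts these are 53.0 (95% counting interval 24.2 to 145), 56.9 (26.0 to 156), 52.6 (24.0 to 144) and 32.1 (14.6 to 87.9), which cover counting error only. Each of the 4 calls held in the 23 other settings in which Tlr7 could be tested. The filter at 10 counts in every library left it out. Tlr7 passed the main filter through the tumors alone, so its tests are not given as support.

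Tlr8, the neighbour of Tlr7 on the X chromosome, had no count in naïve brain and was found in some libraries of each tumor. From counts rounded to whole numbers it was at 2.69, 3.57 and 0 normalised CPM in CT2A, 0, 0.323 and 0 in GL261, 2.47, 5.67 and 0 in 005, and 1.12, 0 and 1.23 in Mut3. Every tumor group thus had at least 1 library with a rounded count of 0, although 005 replicate 3 was listed at 0.0103 TPM, and no tumor passed the test (adjusted p = 0.0710, 0.578, 0.107 and 0.167 for CT2A, GL261, 005 and Mut3). Against the naïve floor the summed level was at least 8.46-fold higher in CT2A, 9.32-fold in 005 and 3.57-fold in Mut3, while GL261 had 2 counts. Without 005 replicate 3, CT2A and 005 were called (adjusted p = 0.0334 and 0.0213).

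Tlr9, which senses unmethylated CpG DNA, had 1, 2 and 1 counts in the GL261 libraries (0.207, 0.323 and 0.121 normalised CPM) and none in the other 12 libraries, and was not tested. At this depth neither its presence nor its absence in the other groups could be told. Tlr13 binds bacterial ribosomal RNA. It was at 1.63, 3.74 and 0.270 normalised CPM in naïve brain, 8.18, 4.50 and 6.20 in CT2A and 9.53, 6.79 and 7.28 in GL261. It was 9.37, 6.88 and 2.63 in 005 and 2.24, 2.77 and 1.32 in Mut3. CT2A and GL261 lay above naïve brain, whereas 005 replicate 3 and all of Mut3 fell within its range. The log2 fold changes were 1.73 ± 0.66 in CT2A (adjusted p = 0.0475), 2.05 ± 0.66 in GL261 (adjusted p = 0.0389), 1.72 ± 0.66 in 005 (adjusted p = 0.0955) and 0.15 ± 0.67 in Mut3 (adjusted p = 0.877). Both calls were close to the threshold and ended with counts scaled as the TPM. That in CT2A ended when any of 9 libraries was left out (naïve 1 or 3, CT2A 1, 2 or 3, GL261 2 or 3, 005 2 or Mut3 2, with values of 1.25 to 2.03 and adjusted p of 0.0515 to 0.123). That in GL261 ended when any of 6 was left out (naïve 1 or 3, CT2A 3, GL261 1, 2 or 3, with values of 1.56 to 2.15 and adjusted p of 0.0509 to 0.109), and 005 was called without naïve replicate 2 (2.79, adjusted p = 0.0341) or 005 replicate 3 (2.02, adjusted p = 0.0209).

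Myd88, the shared adaptor, was at 1.63, 4.48 and 3.79 normalised CPM in naïve brain, 10.6, 11.0 and 13.4 in CT2A and 8.50, 6.63 and 14.8 in GL261. It was 6.59, 24.4 and 6.62 in 005 and 4.03, 5.03 and 3.25 in Mut3. On this scale CT2A, GL261 and 005 lay above all naïve libraries and Mut3 overlapped them. In TPM, naïve replicate 2 (1.71) lay above CT2A replicate 2 (1.46), GL261 replicates 1 and 2 (1.14 and 1.11) and 005 replicate 1 (0.992). The log2 fold change was 1.83 ± 0.56 in CT2A (adjusted p = 0.0184), 1.93 ± 0.56 in 005 (adjusted p = 0.0363), 1.61 ± 0.56 in GL261 (adjusted p = 0.0502) and 0.32 ± 0.56 in Mut3 (adjusted p = 0.669). The CT2A call ended without naïve replicate 1 (1.504, adjusted p = 0.0744) or CT2A replicate 3 (1.73, adjusted p = 0.0545). The 005 call ended without naïve replicate 1 (1.60, adjusted p = 0.137), naïve replicate 3 (2.05, adjusted p = 0.0791) or 005 replicate 2 (1.02, adjusted p = 0.267). Both calls also ended with counts scaled as the TPM. GL261 was called when any of 5 libraries was left out (005 1, 2 or 3, Mut3 1 or 3, with values of 1.53 to 1.72 and adjusted p of 0.0187 to 0.0492). Myd88 overlaps the antisense gene Acaa1a, which shares 8.93% of its 31-base words.

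Taking the 5 groups in 1 test, 8 of the 9 tested members differed, beside 52.1% of all tested genes, and Tlr8 did not (adjusted p = 0.110). The smallest adjusted p was that of Tlr3 (3.76e-04), followed by Tlr7 (9.39e-04) and Tlr6 (0.00214), and the largest of the 8 was that of Tlr13 (0.0365). Without naïve replicate 1 the count was 5. Ordered by mean normalised CPM, GL261 came first for Tlr4, Tlr3, Tlr7 and Tlr13, 005 for Tlr1, Tlr2, Tlr8 and Myd88, and Mut3 for Tlr6. Most neighbours in these orders did not differ beyond their spread. Of 36 neighbouring pairs 4 were called, namely Tlr4 in 005 above Mut3, Tlr6 in CT2A above naïve brain, Tlr3 in CT2A above naïve brain and Tlr7 in Mut3 above naïve brain. Tlr6, Tlr7 and Tlr8 entered the 5-group and neighbour tests through the tumors alone, as given above.

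Between tumors, the called differences of members were mostly between Mut3 and the rest. Of 54 tests of a member between a pair of tumors 11 were called, beside 10.7% of all such tests. That share covers all 6 pairs together, and shares for the pairs with Mut3 alone were not computed. The split was not particular to the members. Of 6 neuronal markers, all were called higher in GL261 and in 005 than in Mut3, and 1 in CT2A. None was called in a pair without Mut3. Tlr4 was higher than in Mut3 in all 3 other tumors, with log2 differences of 2.30 ± 0.63 for CT2A (adjusted p = 0.0272), 2.78 ± 0.64 for GL261 (adjusted p = 0.0106) and 2.05 ± 0.63 for 005 (adjusted p = 0.0328). Those of Tlr3 were 1.23 ± 0.33 for CT2A (adjusted p = 0.0229), 2.33 ± 0.34 for GL261 (adjusted p = 7.97e-04) and 1.60 ± 0.33 for 005 (adjusted p = 0.00550). Tlr2 differed by 2.32 ± 0.66 for GL261 (adjusted p = 0.0270) and 2.75 ± 0.67 for 005 (adjusted p = 0.0120), while CT2A, at 2.04 (adjusted p = 0.0531), was not called. In 005 alone Tlr1 (2.04 ± 0.67, adjusted p = 0.0429) and Myd88 (1.61 ± 0.54, adjusted p = 0.0465) passed the test against Mut3, and no difference of 005 from CT2A or GL261 was called for either gene. The 1 call that did not involve Mut3 was Tlr3 in CT2A against GL261 (-1.10 ± 0.32, adjusted p = 0.0487). For Tlr6, Tlr7, Tlr8 and Tlr13 no pair of tumors was called, and the pairwise log2 values of Tlr7 ran from -0.11 to 0.76.

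The number of these calls depended on single libraries. It was 3, 4 and 6 without Mut3 replicates 1, 2 and 3, 7 without CT2A replicate 3 or GL261 replicate 3, and 15 without 005 replicate 3. In GL261 against Mut3, Tlr3 and Tlr4 were called whichever library was left out, with a largest adjusted p of 0.0442 for Tlr4, while Tlr2 was lost without GL261 replicate 1 or 3 (2.11 and 2.09) or Mut3 replicate 1 or 2 (2.20 and 2.35). In 005, Tlr3 was called against Mut3 whichever library was left out. Tlr2 was lost without 005 replicate 2 (1.480, adjusted p = 0.0640) or Mut3 replicate 1 (2.58, adjusted p = 0.0519), and Tlr4 without 005 replicate 1 or 2 or any Mut3 library (1.42 to 2.33, adjusted p of 0.0524 to 0.135). In CT2A, Tlr4 was lost without CT2A replicate 2 or 3 or any Mut3 library (2.17 to 2.58, adjusted p of 0.0512 to 0.0919), and Tlr3 without CT2A replicate 3 or Mut3 replicate 1 or 2 (1.08 to 1.27, adjusted p of 0.0635 to 0.0926). The calls of Tlr1 and Myd88 in 005 and of Tlr3 in CT2A against GL261 were lost without 8, 11 and 12 of the 15 libraries, and without 005 replicate 2 Myd88 was at 0.69 (adjusted p = 0.325).

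The study sorted the models into more immune active (GL261 and 005) and less active (CT2A and Mut3) tumors. It drew these classes from immune genes in these same RNA-seq data. The contrast between them is thus a description and not independent support. In that contrast 4 of the 9 members were called, beside 12.6% of tested genes called higher. These were Tlr1 (1.70 ± 0.47, adjusted p = 0.0211), Tlr2 (1.51 ± 0.45, adjusted p = 0.0290), Tlr4 (1.27 ± 0.43, adjusted p = 0.0491) and Tlr3 (1.35 ± 0.23, adjusted p = 0.00215). The values of the rest were 0.95 for Tlr13 (adjusted p = 0.132), 0.69 for Myd88 (adjusted p = 0.196), 0.35 for Tlr7 (adjusted p = 0.569), 0.06 for Tlr6 and -1.18 for Tlr8 (adjusted p = 0.524). Without 005 replicate 2, the value of Tlr2 was 0.88 (adjusted p = 0.0865). CT2A against GL261 or 005 was not called for Tlr1, Tlr2 or Tlr4, and for Tlr3 it was called against GL261 alone. For Tlr2 and Tlr4, CT2A libraries overlapped those of both GL261 and 005. Mean Tlr4 was 7.73 normalised CPM in CT2A and 6.54 in 005. For these 2 genes the contrast thus includes the low level of Mut3 and does not hold for each pair of lines. For Tlr1, all CT2A libraries lay below those of GL261 and 005. Each class holds 2 lines, so the replicates are mice of a line and not further lines of the class. The count fell to 1 without CT2A replicate 2 or Mut3 replicate 1, and to 2 without CT2A replicate 1 or 3, GL261 replicate 1 or 3, 005 replicate 2 or Mut3 replicate 2. Tlr3 was the only 1 of the 4 called without each library in turn.

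Compared per length in TPM, Tlr7 had the highest value of the 9 receptors in each of the 12 tumors, narrowly so in 005 replicate 2, where it was at 2.69 TPM and Tlr2 at 2.65. Its share of their summed TPM was 9.92% to 16.1% in naïve brain, 43.1% to 70.3% in CT2A, 50.3% to 77.6% in GL261, 28.1% to 75.7% in 005 and 50.6% to 85.7% in Mut3. In naïve brain Tlr3 took 21.5% to 35.3% of the sum. The summed TPM was 0.670, 2.29 and 0.687 in naïve brain, 8.35, 8.12 and 3.30 in CT2A and 6.46, 11.0 and 7.11 in GL261. It was 8.95, 9.58 and 9.50 in 005 and 4.02, 5.73 and 2.53 in Mut3. All tumor libraries lay above all naïve libraries. Without Tlr7, Mut3 libraries summed to 1.19, 0.820 and 1.25 TPM, within the naïve range of 0.579 to 1.92. Counts and TPM of a gene differ by 1 length that is the same in all libraries, and that length, estimated from the tables, was 1290 bases for Tlr7 and 893 for Tlr8. The longest models of these genes have 3897 and 3431 bases, and in 225 genes with a single model the estimate missed the model length by a median of 19.2%. A short length raises TPM in all libraries alike. The shares and ranks of Tlr7 and Tlr8 against other receptors thus depend on it. Being the same in all libraries, it does not alter the listed changes of these genes between groups. Whether the groups differed in the transcript models of these genes was not tested, and such a difference could enter those changes. In normalised CPM, Tlr3 was above Tlr7 in CT2A replicate 3 (14.5 against 9.43) and GL261 replicates 1 (31.1 against 21.3) and 3 (22.0 against 16.9). Tlr2 was above Tlr7 in 005 replicate 2 (33.4 against 14.4).

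**Figure D3:**
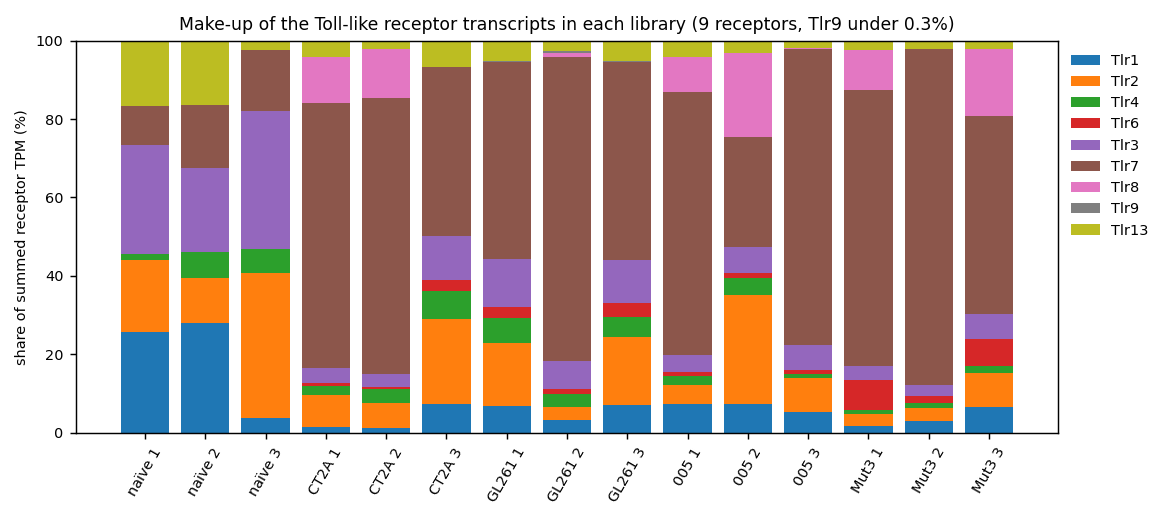
Share of the summed TPM of 9 receptors (y axis, percent) in each of the 15 libraries (bars), with 1 colour per receptor. Tlr7 takes 9.92% to 16.1% in the naïve libraries and 28.1% to 85.7% in the tumors.

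Myeloid transcripts moved with most of these genes. The summed TPM of 10 pan-myeloid markers (among them Ptprc, Csf1r and Itgam) was 245 to 263 in naïve brain, 451 to 483 in CT2A, 849 to 1126 in GL261, 625 to 1784 in 005 and 79.7 to 242 in Mut3, with no marker at 0 in any group. That of 8 microglial markers was 34.3 to 51.9 in naïve brain, 13.6 to 18.8 in CT2A, 24.8 to 43.2 in GL261, 21.5 to 55.9 in 005 and 7.72 to 10.5 in Mut3. That of 8 markers of monocytes and macrophages was 14.7 to 19.4, 71.5 to 100.4, 78.6 to 146, 79.7 to 382 and 37.6 to 250 in the same order. TPM stands higher per CPM in naïve brain, as given above, which raises the naïve sums relative to those of tumors. In log2 normalised CPM, the mean of the 10 pan-myeloid markers was 4.26, 3.81 and 4.27 in naïve brain. It was 3.42, 4.00 and 4.28 in Mut3, so the 2 groups overlapped on that scale. In whole tissue, more cells of a type and more RNA per cell cannot be told apart.

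Across the 12 tumors, the correlation of log2 normalised CPM with the mean of the 10 pan-myeloid markers was 0.93 for Tlr2, 0.91 for Tlr3, 0.85 for Tlr4, 0.80 for Myd88, 0.78 for Tlr1 and 0.75 for Tlr13. It was 0.17 for Tlr7, 0.07 for Tlr8 and -0.22 for Tlr6. These points are 3 mice of each of 4 lines and are given as a description. Relative to the pan-myeloid mean, Tlr6 was at -2.19 ± 1.10 (SD, log2) in Mut3 and at -5.18 ± 0.39 in CT2A, -4.56 ± 0.35 in GL261 and -5.71 ± 0.54 in 005. All 3 Mut3 libraries lay above all other tumors on this scale. The pan-myeloid mean itself was 3.90 in Mut3, 5.72 in CT2A, 6.35 in GL261 and 6.45 in 005. Before this subtraction, Tlr6 differed by -0.04 in GL261 against Mut3 (adjusted p = 0.975), and no pair of tumors was called. A value on this scale thus holds the marker level as well as that of Tlr6. Tlr7 on the same scale was at -4.58 ± 0.78 in naïve brain, and in the tumors at -1.24 ± 1.26 (CT2A), -1.67 ± 0.98 (GL261), -1.91 ± 1.47 (005) and -0.03 ± 1.19 (Mut3), so that all tumors lay above naïve brain and overlapped each other. The part of the myeloid markers in any of these differences was not tested.

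**Figure D4:**
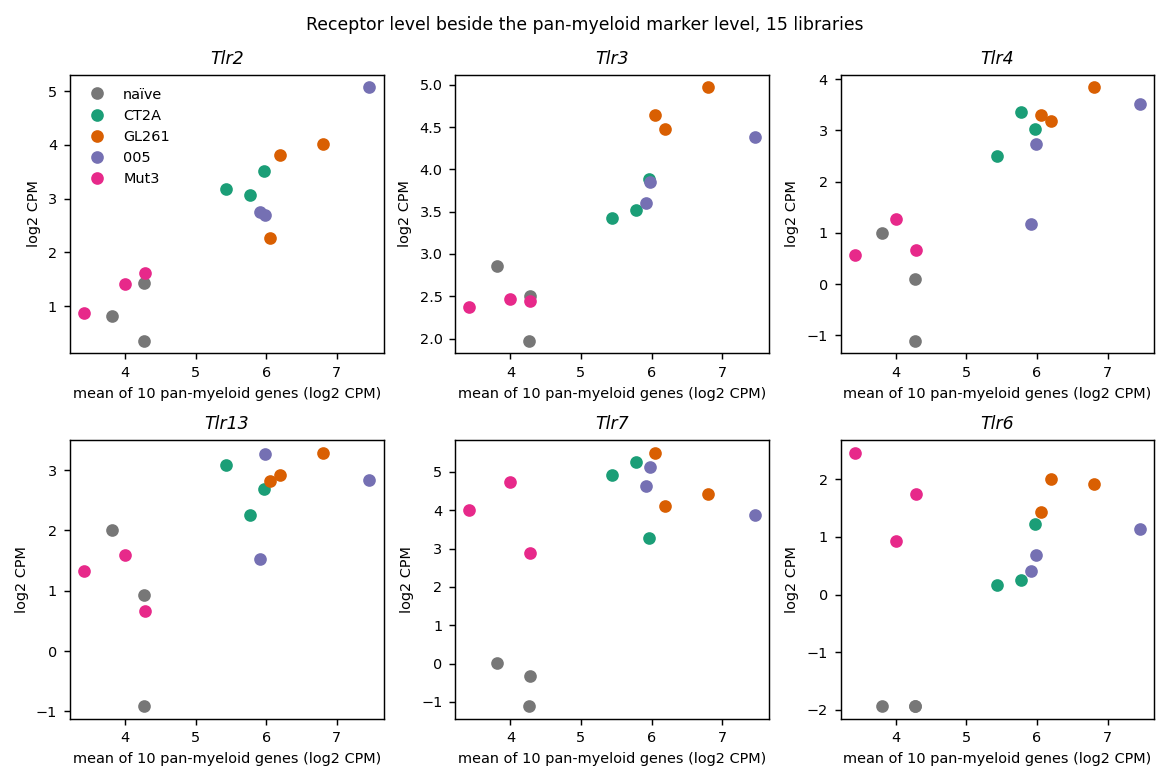
Log2 normalised CPM of 6 receptors (y axes) against the mean log2 normalised CPM of 10 pan-myeloid genes (x axes) in the 15 libraries, coloured by group. Tlr2, Tlr3, Tlr4 and Tlr13 lie high where the markers are high, whereas Tlr7 separates naïve brain from all tumors. Tlr6 is high both in Mut3, where the markers are low, and in GL261, where they are high.

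Markers of other cells differed between groups as well. Their sums are also in TPM, which stands higher per CPM in naïve brain. Summed TPM of T cell markers was 4.44 to 11.0 in naïve brain, 22.8 to 42.4 in CT2A, 67.3 to 137 in GL261, 64.1 to 397 in 005 and 6.45 to 16.5 in Mut3. Those of neutrophils were at most 7.17 except in 005 (5.28 to 43.8), with Ly6g at 0 in Mut3. Dendritic cell markers were at 0.368 to 6.47 throughout, with Clec9a at 0 in naïve brain. Proliferation markers were at 4.27 to 9.22 in naïve brain and 21.6 to 172 in tumors. Neuronal markers were at 521 to 599 in naïve brain and 2.80 to 357 in tumors, those of oligodendrocytes at 173 to 875 and 15.4 to 604, those of astrocytes at 36.6 to 72.6 and 4.12 to 53.2, and those of endothelium at 22.4 to 47.5 and 7.60 to 26.3. The tumor with the most neuronal, oligodendrocyte and astrocyte transcripts was 005 replicate 3. In normalised CPM its Tlr1, Tlr3, Tlr4, Tlr6 and Tlr13 were the lowest of the 005 group. In TPM, the scale of these marker sums, its Tlr3 (0.588) and Tlr6 (0.0979) lay above those of 005 replicate 1 (0.408 and 0.0696).

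Among themselves, the members fell into genes that moved together and genes that did not. Over the 12 tumors the correlation of log2 normalised CPM was 0.91 between Tlr2 and Myd88, 0.89 between Tlr3 and Tlr4, 0.88 between Tlr4 and Tlr13, 0.82 between Tlr3 and Tlr13 and 0.81 between Tlr2 and Tlr4. Tlr6 correlated with other members between -0.51 and 0.07, Tlr7 between -0.51 and 0.43 and Tlr8 between -0.32 and 0.18. The lowest value of all was that of Tlr6 with Tlr7. The libraries share lines and depth within a group, and no test was run.

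**Figure D5:**
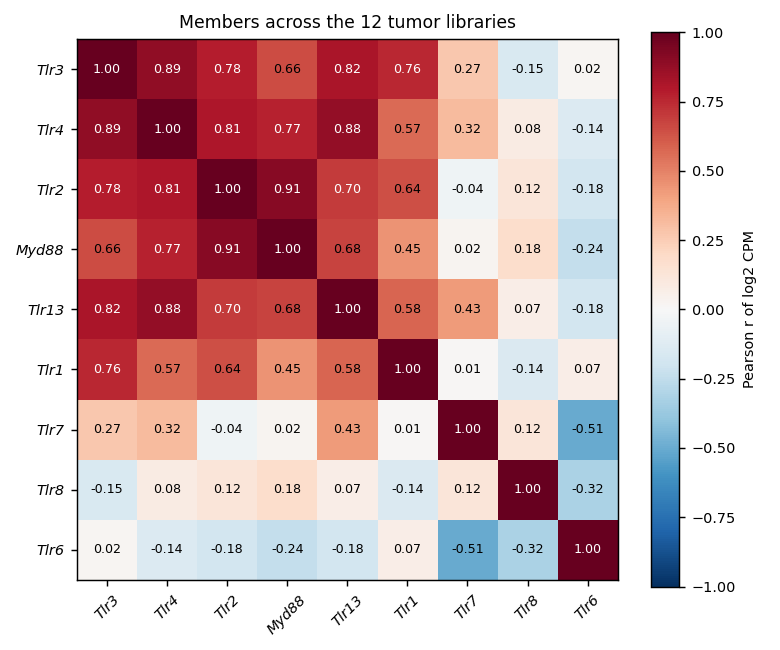
Pearson correlation of log2 normalised CPM over the 12 tumor libraries for each pair of 9 members (colour and printed value, scale from -1 to 1). Tlr3, Tlr4, Tlr2, Myd88, Tlr13 and Tlr1 form a block with values of 0.45 to 0.91, and Tlr7, Tlr8 and Tlr6 stand outside it.

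The rest of the pathway was covered by 63 genes in 7 lists, of which 61 were tested. Tlr5, Tlr12, Ticam2, Nfkb2, Socs1, Tnf, Il12b and Nos2 were under the minimum of the low-count filter in all naïve libraries. They were thus tested through the tumors alone. The counts and medians here, and the counts of single lists below, include them and are given as a description. In CT2A 21 of the 61 were called higher and 4 lower, and in GL261 22 and 1. In 005 these numbers were 21 and 0, and in Mut3 11 and 2. Of all tested genes 19.0%, 14.6%, 11.6% and 17.9% were called higher in CT2A, GL261, 005 and Mut3. In the same order 20.2%, 7.77%, 1.05% and 19.8% were called lower. The number called higher in Mut3 was near its share, and these shares also stand beside the counts of single lists below. The median log2 fold changes of the 61 were 1.19, 1.45, 1.59 and 0.31, or 1.05, 1.41, 1.56 and 0.31 with Tlr5 and Nos2, which had no count in naïve brain, at their bounds or left out. Scaled as TPM, the split became 7 higher and 9 lower in CT2A, 13 and 4 in GL261, 8 and 0 in 005, and 3 and 14 in Mut3. Direction for CT2A and Mut3 thus depended on the scaling, on which the median of all genes moved as given above. Without 005 replicate 2 the count in 005 was 8, without 005 replicate 3 it was 33, without naïve replicate 1 it was 10, and GL261 had 15 without naïve replicate 1.

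Of the other receptors, Tlr5 (the flagellin receptor) had no count in naïve brain and was highest in Mut3, at 1.34, 1.89 and 2.81 normalised CPM. It was 0.733, 0.310 and 0.388 in CT2A and at most 0.604 in any GL261 or 005 library. All Mut3 libraries lay above all others, and Tlr5 was at least 8.78-fold above the naïve floor in Mut3 and 2.07-fold in CT2A. It reached the minimum of the low-count filter in the 3 Mut3 libraries alone, so it was tested only through the group where it was high and its tests are not given as support. It is 1 of the genes counted above as higher in CT2A and in Mut3. Tlr12 did not differ among the 5 groups (adjusted p = 0.115) and Tlr11 was not tested.

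Co-receptors and chaperones load ligands onto the receptors or carry them to the membrane. Of 9, the numbers called higher in CT2A, GL261, 005 and Mut3 were 5, 6, 5 and 1, and 1 was lower in CT2A. Cd14, which hands lipopolysaccharide to Tlr4, was at 12.04, 6.97 and 14.1 normalised CPM in naïve brain and 401, 205 and 190 in GL261, a log2 fold change of 4.59 ± 0.52 (adjusted p = 1.20e-04). It rose by 2.39 ± 0.48 in CT2A and 2.16 ± 0.47 in 005, and was at -0.41 ± 0.47 in Mut3 (adjusted p = 0.504). Ly86, the partner of the receptor homologue Cd180, rose by 1.69 ± 0.54, 2.99 ± 0.56 and 2.31 ± 0.55 in CT2A, GL261 and 005. Hsp90b1, a folding chaperone that most of these receptors need, rose by 2.08 ± 0.45, 1.81 ± 0.45 and 1.53 ± 0.44. Cnpy3, which works with Hsp90b1, fell by 1.07 in CT2A (adjusted p = 0.0272).

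Of 4 other TIR adaptors, 1, 1, 2 and 2 were called higher in CT2A, GL261, 005 and Mut3 and none lower. Ticam1, the adaptor of Tlr3, was at 0.816, 1.49 and 0.270 normalised CPM in naïve brain and 5.93, 4.53 and 3.08 in Mut3. It rose by 2.61 ± 0.56 in GL261 (adjusted p = 0.00574), 2.08 ± 0.56 in 005 (adjusted p = 0.0249) and 2.36 ± 0.56 in Mut3 (adjusted p = 0.00452), with 1.19 ± 0.56 in CT2A (adjusted p = 0.101). Tirap, which bridges Tlr2 and Tlr4 to Myd88, rose by 2.29 ± 0.52 in CT2A, 2.23 ± 0.52 in 005 and 2.34 ± 0.52 in Mut3 (adjusted p = 0.00325), with 1.47 ± 0.52 in GL261 (adjusted p = 0.0544). Sarm1 was called in no tumor. No pair of tumors was called for any of the 4 adaptors.

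Of 15 kinases and ubiquitin ligases, 2, 5, 3 and 3 were called higher in CT2A, GL261, 005 and Mut3 and none lower. Tab1, a partner of the kinase TAK1, rose in GL261 (1.75 ± 0.46, adjusted p = 0.0164) and Tab2, of the same complex, in 005 (1.14 ± 0.29, adjusted p = 0.0189). Tbk1, the kinase of the interferon regulatory factors, was called in no tumor against naïve brain at the fold threshold. It was higher in the more immune active tumors (1.10, adjusted p = 0.00408), a class drawn from these same data. Of 8 transcription factors, 4, 5, 4 and 2 were called higher. Nfkb1, a subunit of NF-κB, rose in all 4 tumors, by 2.66 ± 0.40, 1.23 ± 0.39, 2.47 ± 0.40 and 1.04 ± 0.39 in the same order. Irf7, a factor of interferon induction, rose by 4.14 ± 0.72, 3.80 ± 0.72 and 2.24 ± 0.70 in CT2A, GL261 and 005, with 0.42 ± 0.71 in Mut3. Irf8, a myeloid interferon regulatory factor, rose by 3.57 ± 0.68 in GL261 and 3.07 ± 0.67 in 005.

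Of 9 inhibitors, 2 were called higher and 2 lower in CT2A, 1 higher in GL261, 2 higher in 005 and 1 lower in Mut3. Socs1, a feedback inhibitor of cytokine signalling, rose by 3.27 ± 1.12, 4.64 ± 1.10 and 4.45 ± 1.10 in CT2A, GL261 and 005. It was at 0.204, 0.249 and 0 normalised CPM in naïve brain and 1.24, 9.18 and 0.997 in 005. Socs1 was under the minimum of the low-count filter in all naïve and Mut3 libraries. It was thus tested only through tumors where it was high, and its tests are not given as support. Sigirr rose in 005 (3.33 ± 0.78, adjusted p = 0.0125), at 21.4, 10.3 and 2.42 normalised CPM. Cyld, a deubiquitinase that restrains NF-κB, was at 78.3, 91.7 and 82.2 normalised CPM in naïve brain and 26.7, 22.6 and 27.0 in Mut3, where it fell by 1.72 (adjusted p = 0.00214), and it fell by 1.40 in CT2A (adjusted p = 0.00756). Tollip, an inhibitor of the IRAK kinases, fell by 1.14 in CT2A (adjusted p = 0.0233).

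Of 14 tested induced targets, 6 were called higher and 1 lower in CT2A, 4 and 1 in GL261, 5 and 0 in 005, and 2 and 1 in Mut3. The chemokine Ccl4 rose by 2.72 ± 0.52, 2.77 ± 0.52 and 3.20 ± 0.53 in CT2A, GL261 and 005, with 0.31 ± 0.50 in Mut3. Ccl5, a chemokine for T cells, rose by 2.80 ± 0.78, 2.97 ± 0.78 and 4.38 ± 0.84, with 0.81 ± 0.74 in Mut3. Ptgs2, the inducible cyclooxygenase, went in opposite directions, at 16.5, 11.7 and 7.57 normalised CPM in naïve brain, 28.3, 60.1 and 64.5 in CT2A, 2.69, 2.42 and 5.70 in GL261 and 1.45, 3.15 and 1.32 in Mut3. It rose by 2.09 ± 0.56 in CT2A (adjusted p = 0.00946), fell by 1.71 in GL261 (adjusted p = 0.0432) and fell by 2.61 in Mut3 (adjusted p = 0.00351). Il12a, a subunit of a T cell activating cytokine, fell by 2.73 in CT2A (adjusted p = 0.0289), and Ifnb1 was not tested.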

How the data were processed

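Total RNA of 12 tumors and 3 naïve brains was sequenced as whole transcriptome libraries. Per the labels, reads were aligned with STAR (v2.4.2a) and checked with Picard and RNA-SeQC, and the submitters' processing notes name Salmon, DESeq2 (version 1.18.1) and mm10. The annotation release and strand setting were not given in the sources used here. The authors deposited a table of estimated counts and a table of TPM, scaled for length and library size, per gene. In 4644 genes with over 50 counts in every library, count and TPM differed by 1 factor per gene and 1 per library, so the tables are not independent.

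Of 46679 gene identifiers 46201 matched a symbol in the reference tables. Estimated counts were rounded to whole numbers. Genes were filtered with filterByExpr, scaled by TMM and tested in 1 fit of all 15 libraries with edgeR (version 4.0.16, R 4.3.3) and Benjamini-Hochberg adjustment. The fit used the labels' 5 groups and no covariate, and its code was tested on simulated data. For correlations, a prior count of 2 was added before CPM were put on the log2 scale. The genotypes of CT2A and Mut3 are given in part, and a list of B cell markers is not reported here. Replicates are separate mice, and all replicate pairs differed beyond sampling noise. Alternatives were library size scaling, no filter and a filter at 10 counts in every library, DESeq2 (version 1.42.0), limma (version 3.58.1) on log2(TPM + 1), a replicate block, only the samples compared, no fold threshold and leaving out each library. Scaling as the TPM was added after the data were seen. Members and lists were chosen with earlier results of these data known. The text names all members and, of each pathway list, the 3 genes with the smallest p among the 5 groups. It also names pathway genes not tested, called lower in a tumor against naïve brain, or under the filter minimum in all naïve libraries. For likeness it names the 10 genes nearest to the members' mean z-score and the 2 nearest to each member. Lengths and shared 31-base words were computed from GENCODE M21 transcripts and promoters from RefSeq with Python 3.11.15, and figures with matplotlib 3.10.9.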

Additional observations from a re-analysis of the deposited data

Results flagged for a closer look

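In 11 cases a member differed between a pair of tumors in a direct test of the difference (edgeR, adjusted over all tested genes), so its change against naïve brain was not the same in both. Against Mut3, the log2 difference was 2.04 for Tlr1 in 005, 2.32 and 2.75 for Tlr2 in GL261 and 005, and 1.61 for Myd88 in 005. For Tlr4 it was 2.30 in CT2A, 2.78 in GL261 and 2.05 in 005, and for Tlr3 it was 1.23, 2.33 and 1.60 in the same order. CT2A differed from GL261 in Tlr3 by -1.10. These groups have 3 samples, too few to look for a single sample that stands apart by a fixed rule.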

How the results depend on the processing

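The 4 calls of Tlr7 against naïve brain held in the 23 settings in which it could be tested, all but the filter at 10 counts in every library. Those of Tlr6 were lost with limma on log2(TPM + 1) alone. There the adjusted p of Tlr6 was 0.251 in CT2A and 0.127 in 005. In GL261 and Mut3 its log2 difference was 0.25 on that scale, under the fold threshold. Both genes passed the low-count filter through the tumors alone, so these calls are not given as support. With at least 10 counts in every library few members were left to test, and 1, 1, 1 and 0 were called in CT2A, GL261, 005 and Mut3 against naïve brain, 1 among the 5 groups, 4 between pairs of tumors and 1 in GL261 and 005 against CT2A and Mut3. Of pathway genes 12, 12, 10 and 5 were called. With limma the counts were 1, 1, 1, 1, 5, 0 and 0, and 11, 12, 13 and 6 pathway genes. Scaled as TPM, a setting added after the data were seen, CT2A and 005 had 3 members each, the 5 groups 5 and the pairs 6, with 16 and 8 pathway genes in CT2A and 005. With only the samples compared in the fit, 005 had 1 member and 1 pathway gene. Library size scaling gave 7 pair calls. A gene filter set to none, DESeq2 and no fold threshold kept all counts within 1.5 times. Beyond the main fit, the share of all tested genes called was computed only without naïve replicate 1 and without 005 replicate 3. In the other settings, here and below, a change in these counts cannot be told from a change over all genes.

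Leaving out 1 library gave 3 to 8 members in CT2A, 4 to 7 in GL261, 3 to 9 in 005 and 2 in Mut3, 5 to 9 among the 5 groups, 3 to 15 pair calls and 1 to 4 in GL261 and 005 against CT2A and Mut3. Pathway counts were 19 to 27, 15 to 27, 8 to 33 and 9 to 14. The labels' replicate numbers did not pair the samples: of 30 same-numbered pairs of libraries, correlations of deviations ran from -0.33 to 0.26 and 1 was over 0.1. With the replicate block, 7, 7, 6 and 2 members were called against naïve brain, 7 among the 5 groups, 9 between pairs and 2 in GL261 and 005 against CT2A and Mut3.

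All changes of direction were in values that were not called. Tlr1 in CT2A against naïve brain was -0.016 with library size scaling, -0.13 with limma, -0.87 scaled as TPM and -0.33 to 1.54 without a library. Tlr1 in Mut3 was 0.012 without a filter, 0.047 with the replicate block, 0.034 with DESeq2 and -0.49 to 1.21 without a library. In Mut3, limma and TPM scaling gave -0.045 and -0.32 for Tlr2, -0.014 and -0.12 for Tlr4, -0.087 and -0.82 for Tlr13 and -0.23 and -0.55 for Myd88. Without a library, Tlr13 ran from -0.34 to 1.24, Myd88 from -0.014 to 0.78 and Tlr3 from -0.27 to 0.36 in Mut3, and Tlr6 from -0.11 to 0.33 in GL261 and 005 against CT2A and Mut3. Depth limits Tlr8, Tlr9 and the naïve levels of Tlr6 and Tlr7, which rest on 0 to 3 counts per library. Apart from the shown construction of a setting, the cause of these differences was not tested.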

Other observations

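The genes whose level over the 15 libraries was most like the members' mean z-score, of 8935 compared by Pearson correlation, were Ctsz, Trib1 and Gbp9 (0.97 each), Gm49339, H2-K1, Fcgr4, Cybb and Anln (0.96 each), and Grn and Lama4 (0.95 each). Ctsz is a lysosomal protease, Fcgr4 an antibody receptor of myeloid cells, Cybb a subunit of the phagocyte oxidase, H2-K1 a class I histocompatibility molecule and Gbp9 an interferon-induced GTPase. By the same measure, the nearest genes were Tgfbi and Birc3 for Tlr2 (0.98 and 0.97), Oas1g and Dtx3l for Tlr4 (0.98 and 0.97), Iigp1 and Gm38316 for Tlr3 (0.95 each) and Tgfbi and Vasp for Myd88 (0.94 and 0.93). For Tlr1 they were C1qa and Tapbp (0.87 and 0.85), and for Tlr13 Tmbim1 and Axl (0.91 each). Tlr6 was nearest to Hmgb2 and Cep192 (0.96 and 0.94), which act in chromatin and in centrosomes. Tlr7 was nearest to Vim and Pi4k2b (0.91 and 0.90), but over the 12 tumors alone its correlation with Vim was 0.26. Tlr8 was nearest to Washc2 and Pkn2 (0.84 each). The libraries of a group share a line, depth and tissue make-up, so these values are descriptions with no test.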
